A study of Mus musculus with 2 samples.

Results

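Occupancy of chromatin by TRα1, a thyroid hormone receptor, was examined in brown adipocytes around 10 genes that encode transcription regulators of the brown fat programme: Ppargc1a, Ppargc1b, Prdm16, Ebf2, Irf4, Zfp516, Tbx15, Ehmt1, Nfia and Nfe2l1. The genes are known regulators of this programme and were chosen with earlier results of these data in view. A TR binding site (TRBS, 1 peak of the deposited list) was assigned to a gene when its summit, the position where most ChIP fragments overlap, lay within 100 kb of the transcription start site (TSS) of that gene in GRCm38 (mm10). Of 5107 TRBS in the list, 27 met this rule and 10 of these lay within 30 kb, the distance used by the study. At least 1 TRBS was present within 30 kb for 5 of 10 genes (Ppargc1a, Ppargc1b, Ebf2, Irf4 and Nfe2l1) and within 100 kb for 8 of 10 (also Prdm16, Zfp516 and Nfia). Tbx15 and Ehmt1 had none. Among 21938 protein-coding genes, 16.7% had a TRBS within 30 kb and 38.3% had one within 100 kb.

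The tissue came from C57BL/6J males aged 8 to 12 weeks that expressed GS-tagged TRa1, a receptor fused to a protein tag, specifically in brown adipocytes. Food with propylthiouracil, which blocks the synthesis of thyroid hormone, was given for 2 weeks, and thyroid hormone was then given for 24 h. There was 1 ChIP library, made with an antibody to precipitate the receptor, and 1 input library of chromatin that was not precipitated. The sources used here do not say how many animals were pooled. Neither library had a replicate and tissue without hormone was not analysed here, so the occupancy described is that of hormone-treated tissue alone and no difference was tested.

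Thyroid hormone receptors are nuclear receptors that stay on chromatin with or without their ligand, usually as heterodimers with RXR, and their best-known element is DR4, a direct repeat of the half-site AGGTCA with 4 bases between the copies. Brown adipocytes burn fuel to make heat through the uncoupling protein UCP1. The regulators examined here set up that programme: PGC-1 coactivators raise mitochondrial biogenesis and bind nuclear receptors, PRDM16 and EBF2 establish brown fat identity, and most of the others are transcription factors or cofactors that act on thermogenic genes.

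The sequences under 6 of the TRBS are shown because they carry the elements that the results below turn on. All are from GRCm38 and are read 5′ to 3′ on the strand named. In the Prdm16 sequences capitals mark the 2 half-sites of a DR4. In the Ppargc1a promoter sequence they mark the cAMP response element TGACGTCA and a 9-base match to the CNC element. This is the element of CNC bZIP factors such as NFE2L1, TGAC and GC with 3 bases between them. The match lies on the plus strand as TGACAAAGC, so it reads GCTTTGTCA on the minus strand shown. In the next Ppargc1a sequence and in Ebf2 capitals mark a palindrome of the EBF type (TCCC and GGGA with 2 bases between them). In Nfia they mark single AGGTCA half-sites.
Prdm16 intron, 55158 bp downstream, chr4:154581655-154581775 (+): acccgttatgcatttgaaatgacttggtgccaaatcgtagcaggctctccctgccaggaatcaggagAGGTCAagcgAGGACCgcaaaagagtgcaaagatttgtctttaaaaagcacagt
Prdm16 intron, 38849 bp downstream, chr4:154597964-154598084 (-): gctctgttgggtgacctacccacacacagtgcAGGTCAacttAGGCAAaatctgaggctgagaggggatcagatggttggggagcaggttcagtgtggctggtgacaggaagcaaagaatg
Ppargc1a promoter within the gene, chr5:51553847-51554017 (-): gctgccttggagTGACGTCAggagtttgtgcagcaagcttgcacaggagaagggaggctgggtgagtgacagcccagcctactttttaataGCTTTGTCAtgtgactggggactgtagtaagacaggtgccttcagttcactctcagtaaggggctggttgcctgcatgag
Ppargc1a, 24116 bp upstream, chr5:51591782-51591902 (+): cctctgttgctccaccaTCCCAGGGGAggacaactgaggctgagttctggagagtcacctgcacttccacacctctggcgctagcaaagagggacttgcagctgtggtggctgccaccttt
Ebf2 intron, chr14:67258893-67259033 (+): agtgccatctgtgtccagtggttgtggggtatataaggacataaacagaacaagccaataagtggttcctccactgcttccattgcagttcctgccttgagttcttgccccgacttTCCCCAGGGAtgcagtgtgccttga
Nfia intron, chr4:97820935-97821075 (+): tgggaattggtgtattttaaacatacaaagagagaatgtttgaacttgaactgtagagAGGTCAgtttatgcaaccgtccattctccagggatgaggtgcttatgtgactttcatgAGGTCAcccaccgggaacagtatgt

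**Figure D1:**
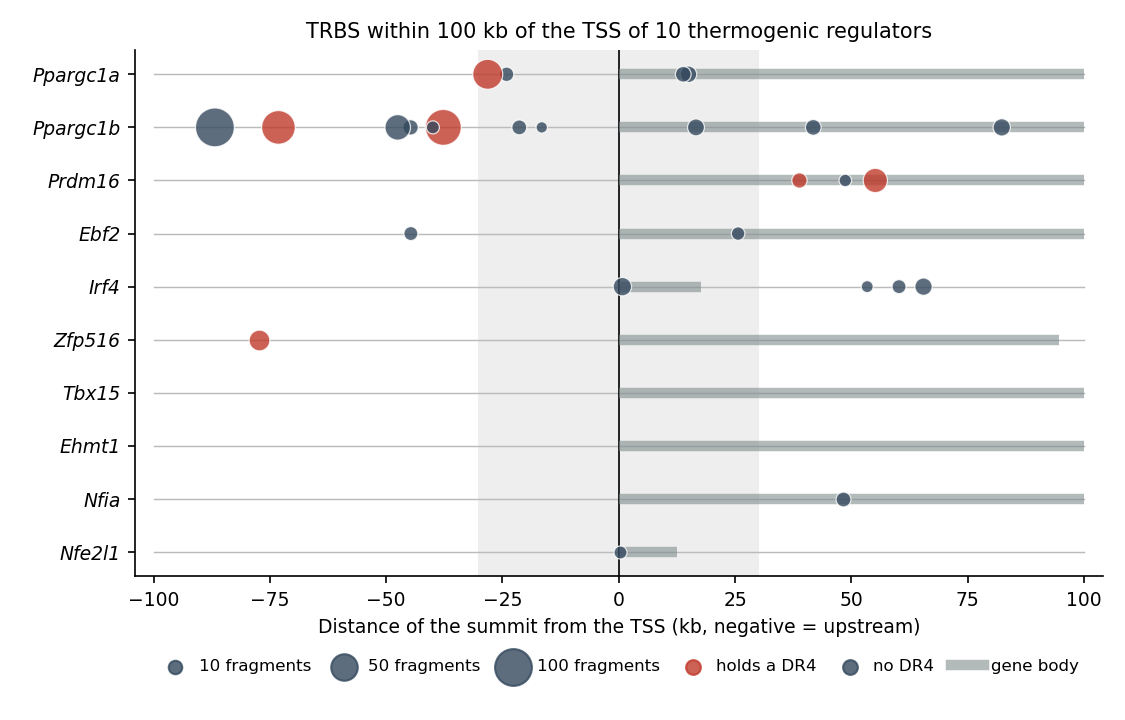
TRBS around each of the 10 genes, with the distance of the summit from the TSS in kb on the x axis (negative is upstream) and 1 gene per row. Point area grows with the number of ChIP fragments, red marks TRBS with a DR4, the shaded band is 30 kb on each side and grey bars are gene bodies cut at 100 kb. Of the 27 TRBS, 11 are at Ppargc1b, and the rows of Tbx15 and Ehmt1 are empty.

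The strength of each TRBS is given as the ChIP fragments that overlap at its summit, a whole number recovered from the deposited fold and p-value, with an exact 95% Poisson interval that covers counting error only. The fold is the deposited enrichment over the local input background, and the score is the deposited MACS score, where the study's methods kept values of at least 60. Over the 27 TRBS the number of fragments ranged from 6 to 112 with a median of 15, and the fold ranged from 3.66 to 54.7 with a median of 7.96. In the whole list the medians were 17 fragments and a fold of 9.83. Of the 27, 7 (25.9%) reached 27 fragments, the upper quartile of the list, against 25.7% of all TRBS. Input background at these summits ranged from 0.43 to 1.83 fragments on the scale of the ChIP library. Its median was 0.913, against 0.672 in the whole list.

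Fragments were unevenly spread among the genes. Of 733 fragments over the 27 summits, 430 (58.7%) lay at Ppargc1b. The 6 TRBS with more than 40 fragments were 4 upstream of Ppargc1b, 1 upstream of Ppargc1a and 1 in Prdm16. Their intervals lay above the median of the list, whereas most of the other intervals overlapped one another and the middle 50% of the list, as the plot of fragments by TRBS shows.

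**Figure D2:**
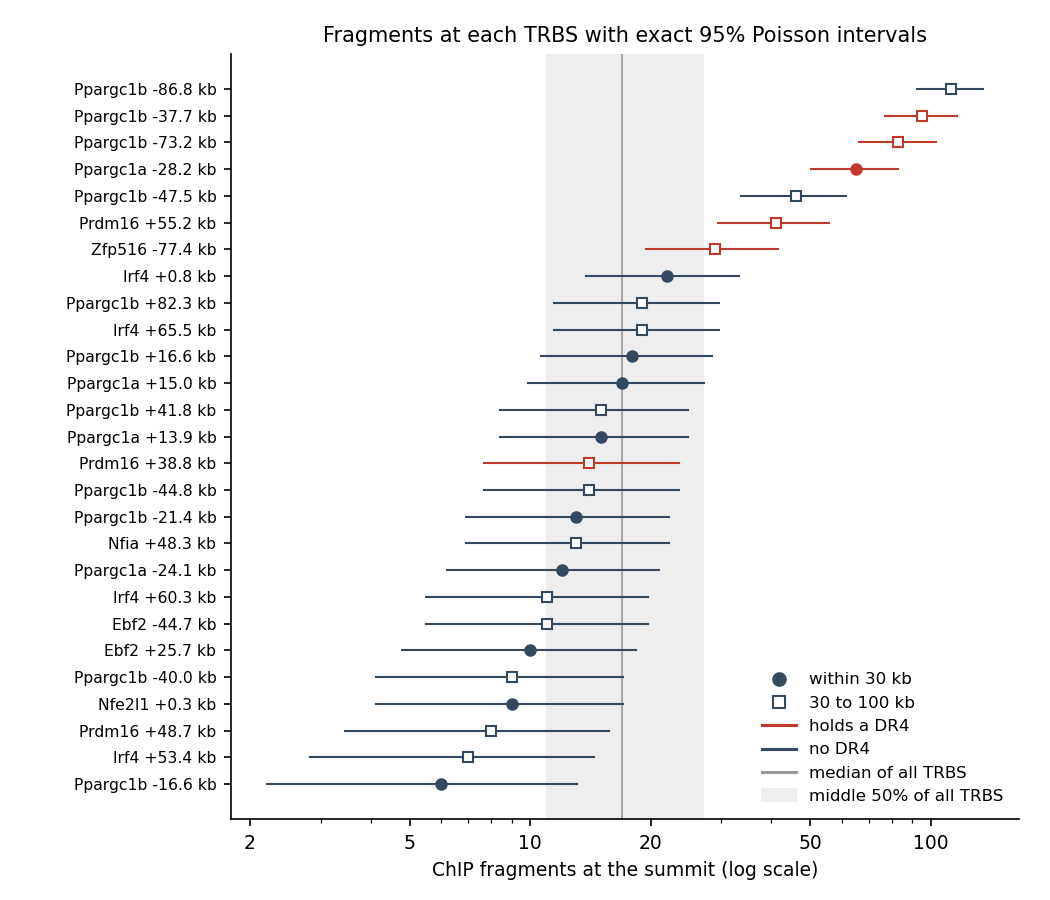
ChIP fragments at the summit (log scale) of each of the 27 TRBS, ordered by their number, with exact 95% Poisson intervals from counting error. Filled circles are within 30 kb of the TSS, open squares are at 30 to 100 kb, red marks a DR4, the grey band is the middle 50% of all TRBS (11 to 27 fragments) and the grey line their median (17). The highest value is 112 fragments at Ppargc1b and the lowest is 6, also at Ppargc1b.

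Ppargc1a encodes PGC-1α, the cold-inducible coactivator of nuclear receptors that drives mitochondrial biogenesis and Ucp1. The gene (chr5:51454250-51567726, minus strand) had 4 TRBS, all within 30 kb of the annotated TSS. At least as many were found at 0.693% of protein-coding genes within 30 kb and at 4.90% within 100 kb. The strongest (chr5:51595505-51596182) lay 28171 bp upstream in intergenic sequence, with 65 fragments (50.2 to 82.8), a fold of 41.0 and a score of 1022. It had more fragments than 96.1% of the list. A weaker one (chr5:51591718-51592117) lay 4055 bp from it, 24116 bp upstream of the TSS, with 12 fragments (6.2 to 21), a fold of 5.86 and a score of 58, just under the study's threshold. The intervals of these neighbours did not overlap.

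The other pair of Ppargc1a TRBS lay inside the gene, 1121 bp apart. One (chr5:51553526-51554020), 13869 bp downstream of the annotated TSS, had 15 fragments (8.40 to 24.7) and a fold of 10.02. The second (chr5:51552564-51552901), 14990 bp downstream and intronic, had 17 fragments (9.90 to 27.2) and a fold of 7.96, and their intervals overlapped over most of their length. The position of the first is a known promoter: the curated RefSeq mRNA of Ppargc1a starts at position 51553921, which is 13805 bp downstream of the 5′ end of the gene in GENCODE, and the summit lay 64 bp downstream of that start. The cAMP response element shown above spans 77 to 84 bp upstream of the same start and falls inside the TRBS. Of all TRBS, 0.607% hold this 8-base element, and among the 27 it was found in this one alone. Its centre lay 144.5 bp from the summit. Within 100 bp of the summit the element was in 0 of 27 and in 0.215% of the list. Measured from the curated start, both upstream TRBS were at 37921 and 41976 bp, so that 2 and not 4 TRBS would count within 30 kb.

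Ppargc1b encodes PGC-1β, the related coactivator that also raises mitochondrial content. This gene (chr18:61298136-61400431, minus strand) had 11 TRBS within 100 kb, 3 of them within 30 kb. At least as many were found at 1.75% of protein-coding genes within 30 kb and at 0.109% (24) within 100 kb. Of these 24 genes, 9 lie at 1 repeat-rich locus at the start of chromosome 9, where up to 21 TRBS were called per gene, and no gene elsewhere had more than 14. The 3 TRBS within 30 kb of Ppargc1b were unremarkable: 18 fragments (10.7 to 28.4, fold 8.57) in an intron at 16602 bp downstream, 13 fragments (6.92 to 22.2, fold 9.58) at 21378 bp upstream, and 6 fragments (2.2 to 13.1, fold 3.66, score 13) at 16550 bp upstream. The last of these had the fewest fragments of all 27.

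Most occupancy at Ppargc1b lay farther upstream. There, 6 TRBS between 37713 and 86822 bp upstream spanned 49109 bp and held 359 fragments. The one with the most fragments (chr18:61486561-61487573) lay 86822 bp upstream with 112 fragments (92.2 to 135) and a fold of 39.98, more fragments than 99.2% of the list. It overlapped in its interval with the TRBS at 37713 bp upstream (chr18:61437780-61438801), which had 95 fragments (76.9 to 116) and the highest fold of the 27, 54.7. The next (chr18:61473329-61474085), 73161 bp upstream, had 83 fragments (66.1 to 103) and a fold of 52.9, and the intervals of these 3 overlapped. The fourth (chr18:61447513-61448849), 47519 bp upstream, had 46 fragments (33.7 to 61.4), a fold of 28.1 and a width of 1337 bp, the widest of the 27. It was below the other 3, since its interval ended under theirs.

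Between the TRBS at 37713 and 47519 bp upstream lay 2 weaker ones with 9 and 14 fragments, so that 4 TRBS with 164 fragments fell within 9806 bp. The assignment to Ppargc1b is by distance only. For the TRBS at 73161 and 86822 bp upstream the nearest protein-coding TSS was that of Arhgef37, at 63002 and 49341 bp, and both lay in annotated noncoding genes. Another TRBS, 105 kb upstream and so just outside the limit, had 48 fragments (35.4 to 63.6) and a fold of 25.5, and its nearest coding TSS was again that of Arhgef37, at 31.1 kb. The 2 remaining TRBS inside the gene, 41820 and 82345 bp downstream, had 15 and 19 fragments.

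**Figure D3:**
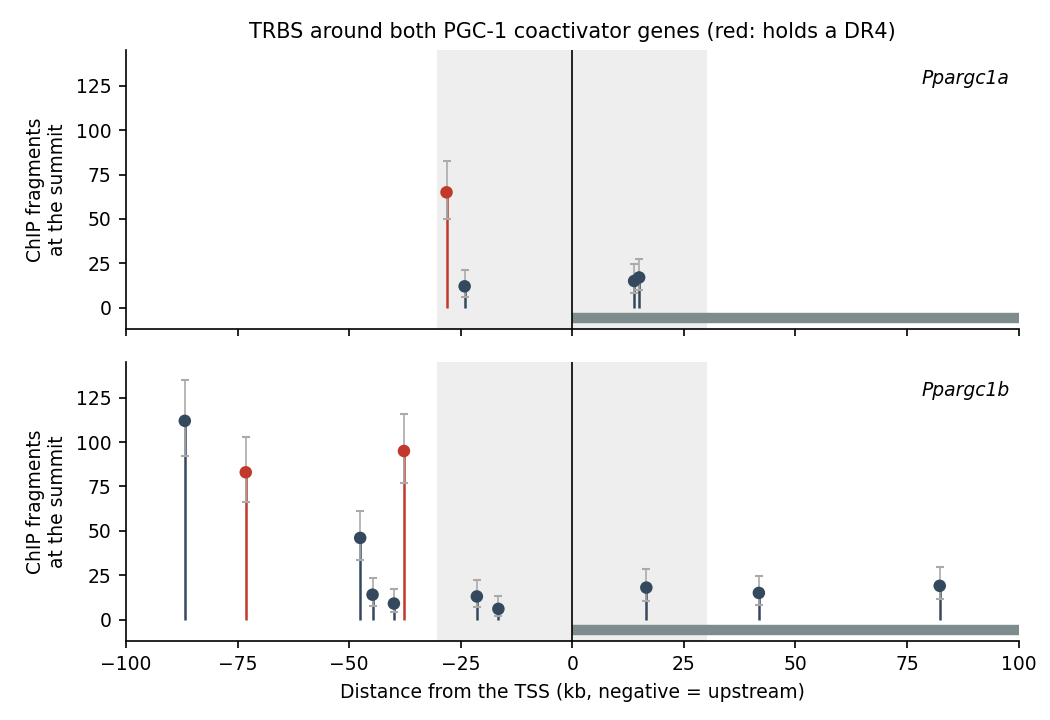
ChIP fragments at each summit (y axis, from 0) against the distance from the TSS in kb (x axis, negative is upstream) for Ppargc1a (top) and Ppargc1b (bottom), with exact 95% Poisson intervals. Red marks TRBS with a DR4, the shaded band is 30 kb on each side and the grey bar is the gene body. At Ppargc1a the tallest TRBS has 65 fragments and is within 30 kb, whereas at Ppargc1b the 4 tallest, with 46 to 112 fragments, all lie beyond 30 kb upstream.

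Prdm16 encodes the zinc finger coregulator that determines brown adipocyte identity. The gene (chr4:154316125-154636873, minus strand) had no TRBS within 30 kb of its TSS and 3 within 100 kb, all intronic. The strongest (chr4:154581005-154582028), 55158 bp downstream, had 41 fragments (29.4 to 55.6), a fold of 27.6 and a score of 587. The others had 14 fragments (7.65 to 23.5, fold 6.76) at 38849 bp and 8 fragments (3.45 to 15.8, fold 6.29, score 56) at 48708 bp, and their intervals overlapped each other but not that of the strongest. Both the strongest TRBS and the one at 38849 bp held a DR4 close to the summit. These are the elements in capitals in the Prdm16 sequences above, with centres 14.5 and 20.5 bp from the summit, and each had 2 mismatches over the 12 bases of its half-sites.

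Ebf2 encodes the EBF family factor that marks brown preadipocytes and opens brown fat genes for PPARγ. The gene (chr14:67233292-67430918, plus strand) had 1 TRBS within 30 kb, intronic at 25661 bp downstream (chr14:67258765-67259043), with 10 fragments (4.8 to 18.4), a fold of 4.96 and a score of 39. A second (chr14:67188504-67188789) at 44694 bp upstream, in the noncoding gene Gm30806, had 11 fragments (5.49 to 19.7) and a fold of 7.18. Both were below the median of the list, and neither held a DR4. The intronic TRBS held the palindrome of EBF factors shown above.

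Irf4 encodes the interferon regulatory factor that partners PGC-1α at Ucp1 and is induced by cold and fasting. The gene (chr13:30749226-30766976, plus strand) had 1 TRBS within 30 kb, in an intron 780 bp downstream of the TSS (chr13:30749719-30750174), with 22 fragments (13.8 to 33.3), a fold of 13.8 and a score of 227. This was the strongest of the TRBS within 1 kb of a transcript start of one of the 10 genes. The 3 others lay beyond the 3′ end of Irf4, at 53418, 60258 and 65523 bp downstream, with 7, 11 and 19 fragments. The last of these (chr13:30814285-30814988; 11.4 to 29.7, fold 9.02) lay in the 3′ UTR of the neighbouring gene Exoc2, whose own TSS was 159 kb away. The interval of the TRBS near the TSS overlapped widely with that of the one at 65523 bp and only at its end with that of the one at 53418 bp (2.81 to 14.4).

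Nfe2l1 encodes a CNC bZIP factor that raises proteasome activity in brown adipocytes exposed to cold. Its single TRBS (chr11:96829574-96829879) lay 303 bp downstream of the 5′ end of the gene (chr11:96817414-96829968, minus strand) and 163 bp upstream of another curated start, in a promoter, with 9 fragments (4.12 to 17.1), a fold of 5.20 and a score of 40. Of the 10 genes, only Irf4 and Nfe2l1 had a TRBS within 10 kb of the annotated TSS, and that of Nfe2l1 was below the study's score threshold.

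Zfp516 encodes a zinc finger protein that binds the Ucp1 promoter together with PRDM16. The gene (chr18:82910663-83005314, plus strand) had 1 TRBS (chr18:82832967-82833661), 77364 bp upstream, with 29 fragments (19.4 to 41.6), a fold of 15.7 and a score of 299. It held a DR4 centred 27.5 bp from the summit. Nfia encodes a nuclear factor I protein that acts with PPARγ at brown fat enhancers. Its TRBS (chr4:97820506-97821126), in an intron 48261 bp downstream of the TSS, had 13 fragments (6.92 to 22.2), a fold of 6.97 and a score of 78, with the TSS of E130114P18Rik slightly nearer at 42917 bp. It held 3 AGGTCA half-sites, 2 of which appear in capitals above. One of these lay under the summit and formed a DR4 with 3 mismatches, 1 more than was allowed here.

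Tbx15 encodes a T-box factor of brown and beige adipocyte differentiation, and Ehmt1 encodes the histone methyltransferase of the PRDM16 complex. Neither had a TRBS within 100 kb. The nearest to Tbx15 lay 829 kb upstream (17 fragments, fold 9.41), and its nearest coding gene was Zfp697. The nearest to Ehmt1 lay 307 kb upstream (26 fragments, fold 14.1), 2.36 kb from the TSS of Tubb4b. At this depth, where the weakest TRBS of the list had 5 fragments, these genes had no detectable occupancy within 100 kb. A gene without a called peak may still be occupied below this level.

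By position, where intergenic means outside protein-coding genes, 14 of the 27 TRBS were intergenic (3 of these in noncoding genes), 10 intronic, 2 in promoters (1000 bp upstream to 100 bp downstream of any transcript start) and 1 in a UTR. Promoters took 7.41% of the 27, against 13.4% in the list, but 20% (2 of 10) of the TRBS within 30 kb. Intergenic TRBS took 51.9%, against 38.2%, and 40% of those within 30 kb. Both gaps from the list rest on Ppargc1b, where 8 of 11 TRBS (72.7%) were intergenic and 0 were in promoters. Without it, 12.5% of the 16 TRBS were in promoters and 37.5% were intergenic, close to the list. Of the 27, 12 were upstream of the TSS and 15 downstream. For 24 TRBS the nearest coding TSS was that of the regulator itself. The 10 genes had a median of 1 other coding TSS within 100 kb, ranging from 0 at 4 genes to 5 at Ehmt1 and Nfe2l1, against a median of 3 over 1 in 10 coding genes, taken at regular steps through the annotation. Of the 27 TRBS, 16 (59.3%) had another TRBS within 10 kb, against 29.7% of the list, and without Ppargc1b the count was 10 of 16 (62.5%). No test was run on this difference. Some of the 16 had a score under the study's threshold of 60. At Ppargc1a this was the TRBS 24116 bp upstream (58), and at Ppargc1b those 16550 and 39962 bp upstream (13 and 30). At Prdm16 it was the TRBS 48708 bp downstream (56), the only one within 10 kb of those at 38849 and 55158 bp. At Irf4 it was the TRBS 53418 bp downstream (27). The shares were not recomputed at this threshold.

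A DR4 with at most 2 mismatches over 12 half-site bases, on either strand, was found in 6 of the 27 TRBS (22.2%, exact binomial interval 8.62 to 42.3) and in 32.0% of all TRBS. Within 30 kb the share was 10% (1 of 10). With a score of at least 60 it was 30% against 34.4% of the list, and with at least 100 it was 33.3% against 36.7%. The 6 were those at Ppargc1a 28171 bp upstream, Ppargc1b 37713 and 73161 bp upstream, Prdm16 38849 and 55158 bp downstream and Zfp516. They had a median of 53 fragments (14 to 95), whereas the 21 without a DR4 had a median of 13 (6 to 112). In the whole list these medians were 20 and 15. The TRBS with a DR4 were also wider, with a median width of 726 bp against 346 bp (470 against 409 bp in the list), and the part of width in the matches was not tested. At Ppargc1a and at Ppargc1b 37713 bp upstream the element lay 282.5 and 281.5 bp from the summit, and 4 of the 27 (14.8%) had it within 100 bp, against 27.1% of the list. The TRBS with the most fragments among the 27, 86822 bp upstream of Ppargc1b, had no DR4 at this stringency. The element at Ppargc1a, chr5:51595607-51595622 on the plus strand, has the following sequence with its half-sites in capitals.
Ppargc1a, 28171 bp upstream: AGATGAttccAGGTCA

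Elements of the regulators themselves and of their partners were sought in the same TRBS on both strands. The EBF palindrome was found in 3 of 27 TRBS (11.1%) and in 4.54% of the list: at Ppargc1a 24116 bp upstream, at Ppargc1b 86822 bp upstream and in the intron of Ebf2. All 3 lay within 100 bp of the summit, where 2.55% of the list held it. Those at Ppargc1a and Ebf2 had scores of 58 and 39, under the study's threshold of 60. Only the one at Ppargc1b, with a score of 1502, passed it. The share of the list with the palindrome was not recomputed at this threshold, so the raised share rests largely on weak TRBS. A single AGGTCA half-site was found in 17 of 27 (63.0%) against 56.0%, and the CNC element in 8 of 27 (29.6%) against 24.4%. Within 100 bp of the summit both shares were below those of the list, at 11 of 27 (40.7%) against 42.3% for the half-site and 3 of 27 (11.1%) against 14.0% for the CNC element. The IRF element was in 1 of 27 (3.70%) against 5.33%, and the ERR element in 1 of 27 (3.70%) against 2.29%. The C/EBP element (4.07% of the list), DR1 (0.490%) and the NFI pair (0.137%) were in 0 of 27, which allows a share of up to 11.1% for each. With so few TRBS, 1 match moves these shares by several percentage points, and a match is a description of letters and not a measure of binding.

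Gene lists around the same programme were examined for TRBS in the same way. The lists share some genes with one another and, in part, with the 10 regulators. Of 14 targets of the brown fat programme, 10 (71.4%) had a TRBS within 30 kb. Among them were Ucp1 with 5 TRBS (strongest 362 fragments, 4514 bp upstream), Kcnk3, a potassium channel gene, with 5 (22 fragments), Otop1, a proton channel gene, with 3 (54 fragments) and Acot11, an acyl-CoA thioesterase gene, with 3 (87 fragments). Of 20 partners of the PGC-1 coactivators, 10 (50.0%) had one, including the nuclear receptor genes Ppara with 6 (strongest 46 fragments, 28880 bp upstream) and Rxrb with 3 (31 fragments).

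Among 13 partners of PRDM16, 4 (30.8%) had a TRBS within 30 kb. Cebpb, the adipogenic C/EBP factor gene, had 6, the strongest with 83 fragments (66.1 to 103) at 25635 bp downstream. Among 22 relatives of the regulators by protein family, 7 (31.8%) had one, and Nfe2l2, the relative of Nfe2l1 that controls antioxidant genes, had 4. Of 15 opponents of the programme, such as corepressors and white fat factors, 2 (13.3%) had one. The shares for targets, PGC-1 partners, PRDM16 partners and relatives were all above the 16.7% of all coding genes, and that of the opponents was near it. Of 12 genes that mark brown adipocytes 7 (58.3%) had a TRBS within 30 kb, also above that share. Of 9 markers of macrophages, endothelium and preadipocytes 0 had one within 30 kb, which allows a share of up to 33.3% and so does not separate them from coding genes in general, and 2 (22.2%) had one within 100 kb. RNA was not measured in these libraries, and TRBS near marker genes are no check of the cell type.

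**Figure D4:**
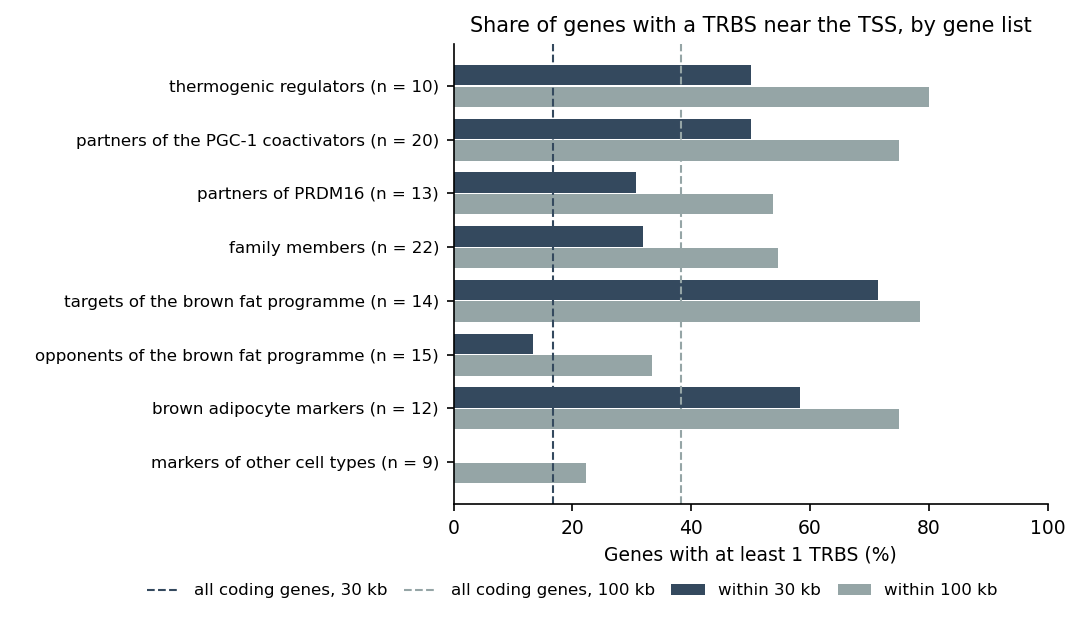
Share of genes (%, x axis from 0) with at least 1 TRBS within 30 kb (dark bars) and within 100 kb (light bars) of the TSS, for the 10 regulators and 7 gene lists, with the number of genes in each. Dashed lines give the share of all protein-coding genes, 16.7% and 38.3%. The 10 regulators are at 50% and 80%, and the markers of other cell types are at 0% and 22.2%.

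Within 30 kb, the 10 regulators had a mean of 1 TRBS per gene against 0.247 for all coding genes. Within 100 kb the mean was 2.7 against 0.759, and without Ppargc1b 16 TRBS remained over the other 9 genes. The median, which 1 gene cannot move far, was 1.5 against 0. With the study's score threshold of 60, TRBS within 30 kb were left at Ppargc1a (3), Ppargc1b (2) and Irf4 (1), and none was left at Ebf2 and Nfe2l1.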

How the data were processed

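ChIP-seq of GS-tagged TRα1 in brown adipose tissue gave 1 ChIP and 1 input library. Per the submitters' processing notes the tools were Bowtie2 2.3.2.2 and MACS2 2.1.1.20160309.6 on mm10, and per the study's methods peaks with a score under 60 were removed. The deposited list of 5107 peaks was not filtered in this way, since 897 peaks had a lower score, and all were kept. The deposited score is 10 times the −log10 q-value. The deposited fold is the ratio of ChIP to local input pileup after 1 was added to each. The deposited −log10 p-value comes from a Poisson test by the authors of that pileup against that background.

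Fragments at the summit and the input background were computed from the fold and the −log10 p-value. This gave whole numbers for 5090 peaks (99.7%) at a tolerance of 0.0005 in −log10 p, with 1 solution for 5052. Read totals are not given in the files used here. Elements were searched without mismatches, apart from DR4, on both strands of the whole peak: AGGTCA, TGACGTCA (CREB), TCAAGGTCA (ERR, which contains AGGTCA), TTGCGCAA, TTGCACAA or TTGTGCAA (C/EBP), GAAA and GAAA 2 bases apart (IRF), TCCC and GGGA 2 bases apart (EBF), TGAC and GC 3 bases apart (CNC), TTGGC and GCCAA 5 bases apart (NFI pair), and 2 AGGTCA or GGGTCA half-sites 1 base apart (DR1). The recovery and the element search were checked on simulated data. No molecular identifiers are mentioned in the sources used here, so fragments may include copies of 1 molecule.

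Genes came from GENCODE M21 on GRCm38, with 1 TSS per gene at its 5′ end, and sequences from the RefSeq assembly of the same build. Of the 10 genes, 6 had a promoter in the RefSeq promoter table (10 promoters), and 1 of these, at Nfe2l1, overlapped a TRBS. For Ppargc1a this source gave a promoter at chr5:51567676-51567975, the 5′ end of the gene in GENCODE, which overlapped no TRBS. It gave none at the curated start within the gene. Python 3.11.15, pysam 0.24.0, pandas 2.3.3 and scipy 1.17.1 were used. The rule for naming took all 10 genes, every TRBS within 30 kb, the strongest at 30 to 100 kb, and from other lists genes with at least 3 TRBS within 30 kb, at most 4 per list. Other TRBS and genes named were chosen after their values were seen. The 10 genes and the gene lists were chosen with earlier results of these data known. With 1 library of each kind no test, replicate error or difference between conditions could be had. Alternatives changed the score threshold, the distance, the TSS and the mismatches.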

Additional observations from a re-analysis of the deposited data

How the results depend on the processing

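A count was taken as moved beyond 1.5 times its value, and a share or median beyond its 95% counting interval, which is narrow for all coding genes and wide for the 27 TRBS. Of 49 recomputed values, 28 stayed within these limits, 21 moved and 0 reversed. With a score of at least 60, the genes with a TRBS within 30 kb fell from 5 to 3 and their TRBS from 10 to 6, and the share of protein-coding genes was 14.1% within 30 kb and 33.6% within 100 kb. With a score of at least 100, the counts within 30 kb were again 3 genes and 6 TRBS, those within 100 kb fell from 8 to 5 genes and from 27 to 15 TRBS, and the shares of coding genes were 11.3% and 28.3%. A limit of 10 kb left 2 genes with 2 TRBS and 8.09% of coding genes, and a limit of 50 kb gave 19 TRBS and 24% of coding genes. Distances from any transcript start gave 19.6% and 40.6% of coding genes, and over all annotated genes the shares were 13% and 30.5%. With any transcript start, Prdm16 and Nfia each gained a TRBS within 30 kb, for 7 genes in all. The curated RefSeq start, an alternative added after the data were seen, left 5 genes with 8 TRBS. The share of the 27 TRBS with a DR4 was 0% with at most 1 mismatch, where 0 of 27 allows up to 11.1% and the list had 7.23%, and 63% with at most 3, where the list had 72.5%. Without the TRBS of Ppargc1b, also added after the data were seen, that share was 25% and the median number of fragments 13.5. No paired analysis was possible because there was 1 ChIP library. Depth limits how finely TRBS of few fragments can be ordered.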

Other observations

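The longest of the regulators, Nfia, Prdm16 and Ebf2, held further TRBS in their introns, more than 100 kb from the TSS and so outside the counts above. Ppargc1a, Ppargc1b, Tbx15 and Ehmt1, also longer than 100 kb, held none there. Nfia had 3. The first, 136.16 kb downstream (chr4:97908692-97909144), had 33 fragments (22.7 to 46.3) and a fold of 20.0, more than the 13 fragments of the TRBS within 100 kb of its TSS. The others, 322.609 and 333.354 kb downstream, had 8 and 12 fragments, and the one with 8 held a DR4. Ebf2 had 2, at 124.448 kb downstream with 10 fragments and at 182.325 kb downstream with 20 fragments (12.2 to 30.9, fold 13.1). The latter was the strongest TRBS of the Ebf2 locus, but its interval overlapped that of each of the others. Prdm16 had 1, at 106.277 kb downstream with 16 fragments (9.15 to 26.0) and a fold of 11.9. Distances are from the 5′ end of the gene in GENCODE. These TRBS were named after their values were seen, and whether they act on the gene that holds them was not tested.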
